A study of Mus musculus with 8 samples.

Results

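Chgb and Neurod1 are 2 genes of the enteroendocrine lineage, and they were taken by gene name from the 1428 genes of the deposited table. Chgb encodes chromogranin B, also called secretogranin-1, an acidic protein packed with hormones in dense-core granules. Neurod1 encodes a basic helix-loop-helix (bHLH) transcription factor of the same lineage. The series compared colon tumours labelled miR-29ab1Vilin-KO (4 libraries, here KO) with colon tumours labelled wild type (4 libraries, here WT), all from C57BL/6N mice. By the series description, the KO mice have miR-29ab1 disrupted in the intestinal epithelium, and the tumours were induced with a carcinogen (azoxymethane) and a colitis-inducing agent (dextran sodium sulfate). The labels give neither ages nor whether each library came from its own animal. The p-values therefore reflect library-to-library spread, part of which may be technical. The deletion concerns epithelial cells, among them enteroendocrine cells, whereas bulk tumour RNA also holds stromal and immune cells.

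Enteroendocrine cells are the hormone-secreting cells of the gut epithelium, scattered singly among absorptive and mucus-secreting cells. They arise in the crypt from progenitors that express Neurog3, whose product switches on Neurod1, and mature cells store peptide hormones or serotonin in granules built with chromogranins. NeuroD1 acts as a dimer with a ubiquitous bHLH protein and binds E-box DNA elements. Chgb is also expressed by neurons, including those of the gut wall.

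The values are normalized counts, that is, reads per gene divided by a size factor for each library. The table lists only genes with an unadjusted p below 0.05 for KO against WT in the authors' analysis, so both genes are there because of this contrast, and their differences are given below as a description of it. The listed genes held between 1202677 and 2180787 reads per library, a sum over the list and not the library depth. KO replicate 4 held the most, and no other library exceeded 1533770. That library stood apart throughout: it was the highest of the 4 KO libraries in 622 of the 829 genes listed higher in KO (75.0%). Results that rest on it are given with and without it. The deleted microRNA genes have no row in the table used here, so the deletion itself was not checked.

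The mature microRNAs of the deleted cluster are shown because their seed, bases 2 to 8 and in capitals here, is what pairs with a target transcript. Both carry the same seed. The sequences are from RefSeq on GRCm38.p6, where both genes lie on the minus strand of chromosome 6.
mmu-miR-29a-3p: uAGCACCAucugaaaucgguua
mmu-miR-29b-3p: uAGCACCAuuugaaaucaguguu
Neither Chgb nor Neurod1 holds the 7-base match to this seed, TGGTGCT, anywhere in its transcript, and neither holds the 6-base core GGTGCT. Each gene has 1 protein-coding transcript in GENCODE M21, of 2740 bases for Chgb and 2729 bases for Neurod1, which equal the gene lengths in the deposited table. Among 2265 protein-coding genes whose longest transcript has between 2500 and 3000 bases, 641 (28.3%) hold the 7-base match and 1314 (58.0%) the core. The search covered exact matches on the GRCm38 sequence only, so it says nothing of other kinds of pairing.

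In the deposited coordinates (gene identifiers of the C57BL/6NJ strain annotation), Chgb lies on chromosome 2 from 140552688 to 140570735 on the plus strand. Neurod1 lies on the same chromosome from 82373609 to 82377839 on the minus strand. Both are annotated as protein-coding, with 5 exons for Chgb and 2 exons for Neurod1 in GENCODE M21.

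The sequence around the start of each gene was searched for 2 elements: the E-box, CANNTG, which bHLH factors bind, and the cyclic AMP response element TGACGTCA, known from granin promoters. Both motifs read the same on either strand as searched. The windows are RefSeq's, from 250 bases before to 50 bases after the start, on GRCm38.p6. The Chgb window held the E-box CACCTG, starting 176 bases before the start, a second E-box 31 bases into the transcript, and the response element 72 bases before the start. The Neurod1 window held 1 E-box, CATATG, and no response element. Each element is shown in capitals within 30 bases of its own strand. The Chgb stretches lie at chr2:132781454-132781483, chr2:132781559-132781588 and chr2:132781660-132781689 (plus strand), and the Neurod1 stretch lies at chr2:79456857-79456886 (minus strand).
Chgb E-box: tgagatctacagCACCTGgcgtccccgcat
Chgb response element: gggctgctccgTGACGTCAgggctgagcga
Chgb second E-box: cccaccgcgccaCAGCTGctctgcggagcc
Neurod1 E-box: gggaagacCATATGgcgcatgccggggagg
An E-box of this form is found in 72.3% of all 32851 RefSeq windows, so its presence distinguishes neither gene. The response element is found in 1.79% of them. These matches describe letters and do not show binding.

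Chgb, the granule protein, was more abundant than Neurod1 and varied between libraries. Its normalized counts were 236, 545, 375 and 1908 in KO replicates 1 to 4, against 157, 215, 335 and 406 in WT replicates 1 to 4. KO replicates 2 and 4 lay above every WT library, KO replicate 3 lay below WT replicate 4, and KO replicate 1 lay below WT replicates 3 and 4, so the groups overlapped. The mean was 766 ± 772 in KO and 278 ± 113 in WT (SD, n = 4 each), whereas the medians were closer, at 460.0 in KO and 275 in WT. In bulk tissue, more enteroendocrine cells and more Chgb RNA per cell cannot be told apart.

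On the log2 scale (normalized count + 1), KO minus WT was 1.08 ± 0.72 (SE) for Chgb, with p = 0.171 by an exact permutation test, two-sided, over the 70 arrangements of 4 and 4 libraries. The smallest p such a test can give is 0.0286. In the authors' deposited table the log2 fold change of Chgb is 1.46, with a p of 0.0143 and an adjusted p of 0.625. The Chgb level of KO replicate 4 equalled 6.86 times the average WT level and made up 62.3% of the signal summed over the KO libraries. Without it KO averaged 385 ± 155 (SD, n = 3), or 1.39 times WT, and the log2 difference was 0.48 (exact permutation p = 0.371).

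Counting error was small beside this spread. Chgb had 1950 reads in KO replicate 4 (95% exact Poisson interval 1864 to 2039), against 161 reads in WT replicate 1 (137 to 188), the lowest library. Such intervals cover counting error only. The 3 other KO libraries had from 245 to 509 reads, and the highest WT library had 401.

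Neurod1, the lineage factor, was far less abundant and showed the same order among the KO libraries. Its normalized counts were 5.78, 16.1, 8.90 and 91.0 in KO replicates 1 to 4, against 2.92, 9.25, 13.1 and 6.07 in WT replicates 1 to 4. Again KO replicates 2 and 4 lay above every WT library. KO replicate 1 lay below 3 of the 4 WT libraries, and the groups overlapped. The mean was 30.4 ± 40.6 in KO and 7.85 ± 4.38 in WT (SD, n = 4 each), and the median was 12.5 in KO and 7.66 in WT.

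For Neurod1, KO minus WT on the log2 scale was 1.18 ± 0.92 (SE), with an exact permutation p of 0.286, two-sided. In the authors' deposited table the log2 fold change of Neurod1 is 1.96, with a p of 0.0303 and an adjusted p of 0.684. The Neurod1 level of KO replicate 4 equalled 11.6 times the average WT level and 5.66 times the next KO library, and it made up 74.7% of the signal summed over the KO libraries. Without it KO averaged 10.3 ± 5.28 (SD, n = 3), or 1.31 times WT, and the log2 difference was 0.39 (exact permutation p = 0.514). Apart from KO replicate 4, each library rested on 3 to 15 reads, against 93 in that one. The 95% exact Poisson interval was 75.1 to 114 reads in KO replicate 4 and 8.40 to 24.7 in KO replicate 2, while WT replicate 3, the highest WT library, had 6.92 to 22.2.

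Thus 0 of the 2 genes passed an adjusted p of 0.05 in the authors' deposited table, where 6 of the 1428 listed genes (0.42%) did so and were higher in KO. Neither had all KO libraries above all WT libraries, as 342 listed genes (23.9%) did. Being listed higher, as both were, was shared with 829 listed genes (58.1%).

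**Figure D1:**
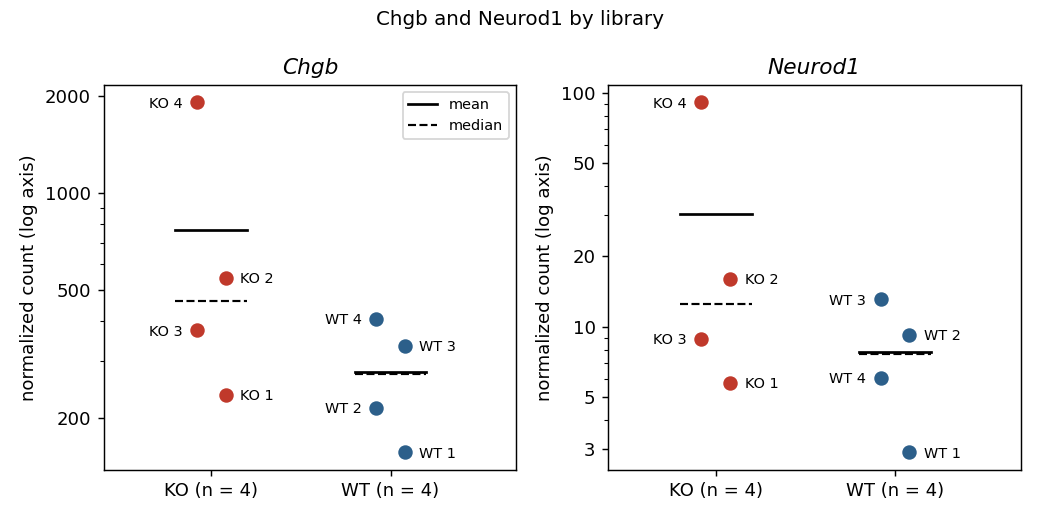
Normalized counts (log axis) of Chgb, left panel, and Neurod1, right panel, in 4 KO and 4 WT libraries; each point is 1 library, the solid line is the group mean and the dashed line the median. KO replicate 4 lies far above the rest in both panels (1908 for Chgb, 91.0 for Neurod1), and the other KO libraries fall among or near the WT libraries.

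The difference was recomputed with each library left out in turn. For Chgb it ran from 0.48 without KO replicate 4 to 1.49 without KO replicate 1, and for Neurod1 from 0.39 without KO replicate 4 to 1.65 without KO replicate 1. KO stayed the higher group in each of these, and no permutation p fell below 0.05. Among the WT libraries, replicate 1, the lowest in both genes, had the most weight, with 0.84 for each gene in its absence.

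**Figure D2:**
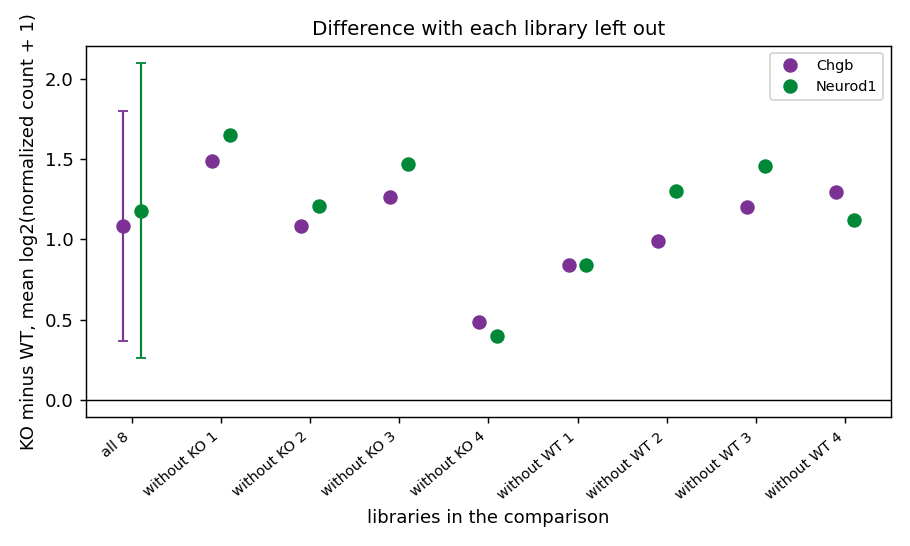
KO minus WT difference in mean log2(normalized count + 1) for Chgb and Neurod1 with all 8 libraries (bars are the SE) and with each library left out. Both genes drop most without KO replicate 4, to 0.48 for Chgb and 0.39 for Neurod1.

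The granule protein and the lineage factor were then set against each other within each library, where the size factor cancels. Since the 2 transcripts differ little in length, the ratio per length is close to the ratio of counts. Chgb averaged 280 ± 282 normalized counts per kilobase in KO and 101 ± 41.2 per kilobase in WT, whereas Neurod1 averaged 11.2 ± 14.9 in KO and 2.87 ± 1.60 in WT (SD, n = 4 each). Per length, Chgb exceeded Neurod1 by 40.7, 33.8, 41.9 and 20.9 times in KO replicates 1 to 4, against 53.5, 23.1, 25.4 and 66.6 times in WT replicates 1 to 4. The lowest ratio was in KO replicate 4, yet WT replicates 2 and 3 were close to it, and the WT range enclosed the other 3 KO libraries.

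The log2 ratio of Chgb to Neurod1 averaged 4.94 ± 0.39 in KO and 5.04 ± 0.68 in WT (SD, n = 4 each). KO minus WT was -0.10 ± 0.39 (SE), with an exact permutation p of 0.743, two-sided. No shift of one gene relative to the other was detectable with 3 to 15 Neurod1 reads in most libraries. The sign of this difference changed without KO replicate 4, where it was 0.089. It also changed without WT replicate 4 (0.17) and without WT replicate 1 (0.0003).

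Across the 8 libraries the log2 values of the 2 genes had a Pearson r of 0.93 (exact permutation p = 0.00387) and a Spearman rho of 0.71 (exact permutation p = 0.0576). This was the one relation tested. Both genes were listed as higher in KO on these same libraries, which by itself favours a positive r. The p therefore does not show that the 2 genes are linked. With KO replicate 4 and WT replicate 1 left out, the libraries farthest from the Chgb median, r was 0.50 (exact permutation p = 0.331, 6 libraries). Leaving out the extremes narrows the range, which tends to lower r, so this value alone cannot show what the relation rests on. Without KO replicate 4 alone, r was 0.74 (exact permutation p = 0.0571, 7 libraries). Within a group there are too few libraries for a value. Both genes ranked the KO libraries as replicate 1, 3, 2 and 4 from low to high, whereas in WT Chgb was highest in replicate 4 and Neurod1 in replicate 3.

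**Figure D3:**
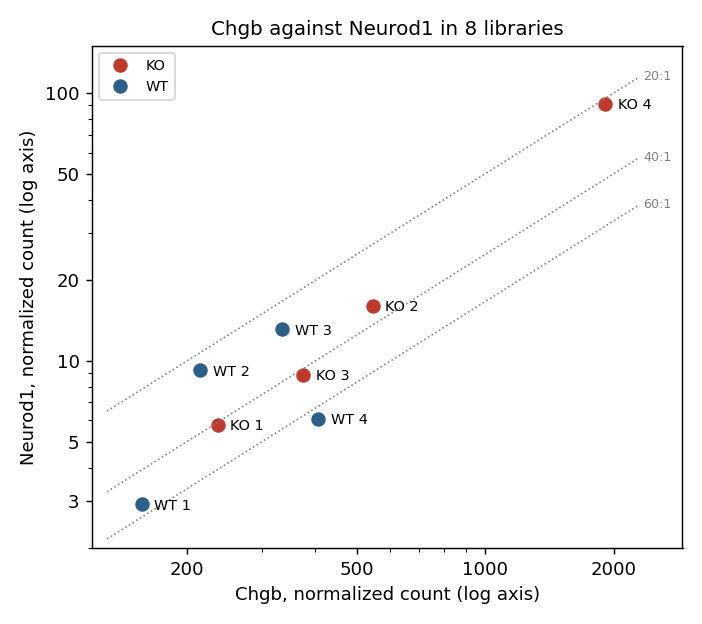
Neurod1 against Chgb, both as normalized counts on log axes, with 1 point per library; dotted lines mark constant ratios of Chgb to Neurod1. KO replicate 4 lies alone at the upper right (1908 and 91.0), and the other 7 libraries form a loose group in which WT replicate 4 has the highest ratio.

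Many listed genes followed the same profile. By Pearson r of log2(normalized count + 1) over the 8 libraries, among 999 other listed protein-coding genes with a mean of at least 10 normalized counts, Neurod1 ranked 16th for likeness to Chgb, and 47 genes had an r above 0.9. The 5 nearest to Chgb were Mgat3, a glycosyltransferase (r = 0.98), Spib, an ETS transcription factor (0.98), Kcnk5, a potassium channel (0.97), Pcx, pyruvate carboxylase (0.96), and Rap1gap2, a GTPase-activating protein (0.96). For Neurod1, Chgb ranked 29th, and 72 genes had an r above 0.9. Among its 5 nearest were Ybx2, an RNA-binding protein (0.98), Sult1d1, a sulfotransferase (0.98), and Slc24a3, a cation exchanger (0.97). Without KO replicate 4 the r values of these 8 genes were from 0.84 to 0.95 over 7 libraries, while that of Chgb with Neurod1 was 0.74. The 8 genes were chosen for a high r over libraries that include these 7, whereas Chgb and Neurod1 were not. The values are therefore not on an equal footing.

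The remaining enteroendocrine genes came from 5 lists of granule proteins, processing enzymes, hormones, transcription factors and nutrient receptors, 67 genes with the 2 above. Of these, 7 were listed, each of them on the KO side, and 0 reached an adjusted p of 0.05 in the authors' deposited table. That is 10.4% listed, beside 7.15% of the 19985 genes its adjustment covers. Chgb and Neurod1 were taken from the listed genes, so their listing was fixed beforehand, and without them 5 of 65 genes were listed. Of all listed genes, 58.1% were on the KO side and 0.42% both there and past the adjusted p. The other 60 were not listed and have no values here. Those not listed include the granin Chga, the lineage regulator Neurog3, the prohormone convertases Pcsk1 and Pcsk2, the hormones Pyy, Insl5 and Sst, and Tph1, the serotonin-synthesis enzyme. The median log2 fold change of the 7 in the authors' deposited table was 1.96, the value of Neurod1 itself, beside 1.00 for all 829 genes listed higher. As a ratio of KO to WT means, the median of the 7 was 3.88 with all libraries and 2.16 without KO replicate 4, beside 1.94 and 1.47 for the 797 genes listed higher that had any WT reads. A cut on p admits genes with few reads only at a large fold. Several of the 7 have few reads, so neither comparison shows a larger change in this lineage. KO replicate 4 was the highest of all 8 libraries in each of the 7, as it was in 622 of the 829 genes listed higher (75.0%).

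Gcg, which encodes the glucagon-like peptides of L cells, was the one listed hormone of 13. It had 31.8, 105, 30.3 and 413 normalized counts in KO replicates 1 to 4, against 47.7, 27.7, 88.0 and 30.4 in WT replicates 1 to 4. The groups overlapped, and KO replicates 1 and 3 lay at the level of the lower WT libraries. With KO replicate 4 left out, KO averaged 1.15 times WT. In the authors' deposited table the log2 fold change of Gcg is 1.58, with an adjusted p of 0.700.

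Of 20 transcription factors of the lineage, Fev, Lmx1a and Etv1 were listed beside Neurod1. Fev, a factor of serotonin-producing cells, had 4.82, 9.64, 7.12 and 17.6 normalized counts in KO replicates 1 to 4, against 0, 1.03, 3.03 and 4.05 in WT replicates 1 to 4. It was the one of the 4 factors in which every KO library lay above every WT library, although these values rest on 5 to 18 reads in KO and 0 to 4 reads in WT. Lmx1a, which acts in the same cells, had 2.89, 11.8, 3.56 and 32.3 in KO replicates 1 to 4, against 0, 0, 6.07 and 1.01 in WT replicates 1 to 4, and the groups overlapped. Etv1, an ETS factor, ranged from 2.89 to 26.4 normalized counts in KO and from 2.92 to 5.06 in WT, with KO replicate 1 at the lower end of the WT range.

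Ffar1, a receptor for long-chain fatty acids, was the one listed receptor of 12. It had 4.82, 8.57, 2.67 and 37.2 normalized counts in KO replicates 1 to 4, and among the WT libraries only replicate 3 held any, at 2.02. These are 3 to 38 reads in KO libraries and 2 reads in WT in all, too few for a fold. The groups did not overlap in Ffar1 and in Fev, which makes 2 of the 7 listed enteroendocrine genes. This held for 342 of all listed genes (23.9%). All 342 were among the 829 genes listed higher in KO, as the 7 are, so the like comparison is 342 of 829.

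Genes next to this lineage were looked up as well. Dll1, a Notch ligand of secretory progenitors, was the one listed gene of 11 in the secretory lineage and Notch list, with 269.5 ± 93.9 normalized counts in KO and 162 ± 51.9 in WT (SD, n = 4 each). Its deposited log2 fold change was 0.73, with an adjusted p of 0.686 in the authors' deposited table. Of 9 bHLH proteins that could pair or compete with NeuroD1, Ascl2, the stem cell regulator, was alone in being listed, and its values were 767.2 ± 92.3 in KO and 1060 ± 151 in WT (SD, n = 4 each). Its groups overlapped, and the authors' deposited table gives an adjusted p of 0.625. No gene of the goblet cell list, of 9, was listed. These counts stand beside the 7.15% of all genes that were listed.

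Markers of other cell types were also high in KO replicate 4. With Chgb, the Pearson r over the 8 libraries was 0.94 for Hnf4a and 0.77 for Mep1a among colonocyte genes, 0.87 for the B cell gene Cd79a and 0.84 for the tuft cell gene Trpm5. Without KO replicate 4 these were 0.73, 0.19, 0.66 and 0.35. With Neurod1, r for the same genes in that order was 0.94, 0.92, 0.75 and 0.82. Without KO replicate 4 the Neurod1 values were 0.72, 0.72, 0.29 and 0.24, so the order of the genes differed between the members. All 5 listed members of 15 colonocyte genes (Cdhr5, Ceacam20, Hnf4a, Hnf4g and Mep1a) were listed higher in KO, as were 58.1% of all listed genes, and none passed an adjusted p of 0.05. Hnf4a, a nuclear receptor of gut epithelium, was abundant in every library, from 8832 to 22661 normalized counts in KO and from 5904 to 7820.1 in WT. The summed level of the 5 ran from 18964 to 52481 normalized counts in KO, no higher than 20718 without KO replicate 4, and from 13686 to 16977 in WT. All 9 listed members of 12 B and plasma cell genes were listed higher in KO, none past an adjusted p of 0.05, with a summed level from 174 to 2779.8 in KO, no higher than 803 without KO replicate 4, and from 94.5 to 232 in WT. The listed share was 33.3% of the colonocyte genes and 75.0% of the B and plasma cell genes, beside the 7.15% of all genes. Of these 9 B and plasma cell genes, Cr2, Ighd, Pax5 and Blk were at 0 in at least 1 WT library.

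Of 11 tuft cell genes, Lrmp, Gnat3 and Trpm5 were listed higher, with a summed level from 805 to 1332 in KO, no higher than 1319 without KO replicate 4, and from 383 to 584 in WT. That is 27.3% listed, beside 7.15% of all genes, and 58.1% of listed genes were higher in KO. Lrmp passed an adjusted p of 0.05 in the authors' deposited table (0.0461), and its highest KO library was replicate 2. Of all listed genes, 0.42% passed that threshold and were higher in KO. Gnat3, a taste-type G protein subunit, was at 85.1 in KO replicate 4, at most 18.2 in the other KO libraries and at most 6.07 in WT.

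Of 16 genes of enteric neurons and glia, which also bear on Chgb, Chat alone was listed, beside 7.15% of all genes. It had 1.93, 10.7, 0.890 and 39.1 normalized counts in KO replicates 1 to 4 and was at 0 in all 4 WT libraries. The other 15 genes of that list, among them Elavl4 and Uchl1, were not listed, so Chat alone does not show neuron content. The part that colonocyte, B cell, tuft cell or neuron content plays in the Chgb and Neurod1 values was not tested.

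Relative to the WT mean, with 1 added to both values, the median over the 7 listed enteroendocrine genes was 0.861, 3.06, 1.65 and 8.37 in KO replicates 1 to 4. The median over the 5 colonocyte genes was 1.27, 1.37, 1.27 and 4.42 in the same libraries, and that over the 9 B and plasma cell genes was 1.17, 4.68, 2.28 and 16.5. All 3 lists were highest in KO replicate 4, and replicate 2 came second in each. The same held for the median over all 829 genes listed higher, at 1.44, 1.51, 1.40 and 2.77 in KO replicates 1 to 4.

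**Figure D4:**
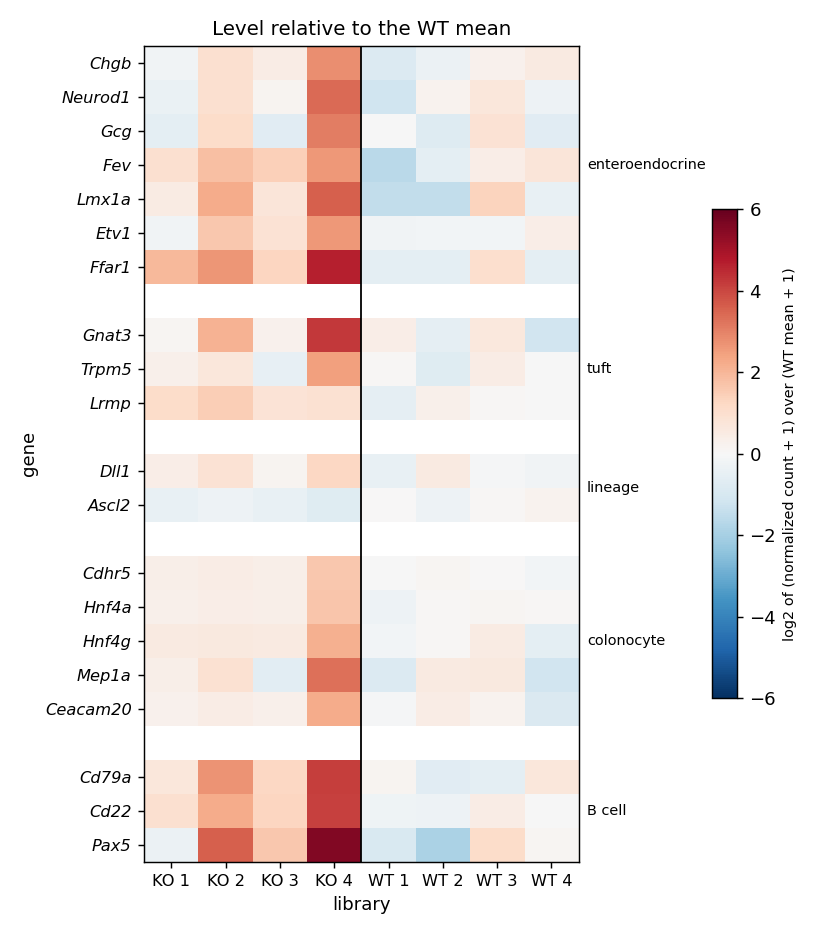
Heat map of log2 of (normalized count + 1) over (WT mean + 1), with genes in rows by list and the 4 KO and 4 WT libraries in columns; red is above and blue below the WT mean, and 3 of the 9 listed B cell genes are shown. The column of KO replicate 4 is the darkest for Chgb and Neurod1 and for most genes of the other lists, while Lrmp is above the WT mean in all 4 KO libraries and Ascl2 below it.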

How the data were processed

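Total RNA of colon tumours was made into libraries with a directional kit, per the labels' protocols. HISAT2 and DESeq2 are named, without versions, in the submitters' processing notes, as is GRCh38, a human build, whereas the gene identifiers belong to the mouse C57BL/6NJ annotation. For the counting tool and its strand setting, the sources used here give nothing.

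The deposited signal columns hold counts divided by size factors for 1428 genes. Each value, times a size factor between 0.933 and 1.12, fell within 0.001 of a whole read for 100% of values in each library. The authors' log2 fold change, with KO on top, and its raw and adjusted p-value were copied from the deposited table, whose adjustment implies 19985 genes.

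Chgb, Neurod1 and their ratio were tested by exact permutation of log2(normalized count + 1). All listed genes were refitted, as recovered reads or log2 values, in edgeR 4.0.16, DESeq2 1.42.0 and limma 3.58.1 in R 4.3.3, adjusted over 19985 genes and checked on simulated data. These spreads come from selected genes. No 2 libraries of a group agreed within sampling noise (lowest chi-square over its degrees of freedom 21.2). The members and lists were chosen with earlier results of these data known. The named genes are the members, every listed gene of the 12 lists, and the 5 nearest in profile to each member, of which some are not reported here.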

Additional observations from a re-analysis of the deposited data

Results flagged for a closer look

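Neurod1 in KO replicate 4, at 91.0 normalized counts with the next KO library at 16.1, stood farther from its group than Dixon's 95% critical value for 4 values allows. Chgb in the same library fell just short, with a ratio of 0.815. Of 71 groups of 4 with any spread over the named genes and the Chgb to Neurod1 ratio, 17 passed the critical value, and 13 of these were KO replicate 4. Leaving out the genes chosen for a profile like that of Chgb or Neurod1, which both peak in KO replicate 4, it was 12 of 55 groups, 8 of them KO replicate 4. The critical value assumes normally distributed values, whereas these are counts without a log, some of them very low. The usual rate of 1 in 20 by chance therefore does not apply. These groups also share their libraries and were not chosen independently of this pattern.

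Among the other enteroendocrine genes the isolated values were in WT, with Lmx1a at 6.07 and Ffar1 at 2.02 in WT replicate 3 and Etv1 at 5.06 in WT replicate 4, each on few reads. The colonocyte genes Ceacam20 (6050 normalized counts), Cdhr5 (18826), Mep1a (4431), Hnf4a (22661) and Hnf4g (512.7) were isolated in KO replicate 4, and Hnf4a was isolated low in WT replicate 1 (5904). The B cell genes Cd79b (251) and Ighd (361) were isolated in KO replicate 4. So were 5 of the genes nearest in profile to the 2 members, namely Kcnk5 (2232), Pcx (4097), Ybx2 (1174), Sult1d1 (3172) and Slc24a3 (204.5).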

How the results depend on the processing

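Chgb and Neurod1 stayed higher in KO and short of an adjusted or permutation p of 0.05 under each of the 19 alternatives run for each. Counting the authors' deposited values, the log2 difference ran from 0.47 to 1.49 for Chgb and from 0.38 to 1.96 for Neurod1, and both lowest values came without KO replicate 4, in edgeR refits added after the data were seen. With single libraries left out it ran from 0.48 to 1.49 for Chgb and from 0.39 to 1.65 for Neurod1. With all libraries edgeR gave unadjusted p-values of 0.0439 for Chgb and 0.0642 for Neurod1, and DESeq2 0.0209 and 0.0379. At an adjusted p of 0.05 edgeR called 0 listed genes (1112 at an unadjusted p below 0.05), limma 0 (1027) and DESeq2 37, against 8 in the authors' deposited table. The Chgb to Neurod1 difference, -0.10, turned to 0.14 with a pseudocount of 5, and ran from -0.31 to 0.17 with single libraries left out; the cause was not tested. The count of 7 enteroendocrine genes higher in KO was 7 in every alternative run, but listing on this contrast had already fixed that direction.

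The replicate numbers are not said to pair libraries, and deviations of same-numbered libraries correlated from -0.29 to 0.098. With the replicate number as a block, limma gave 1.08 for Chgb (unadjusted p = 0.0262, adjusted p = 1) and 1.18 for Neurod1 (unadjusted p = 0.172, adjusted p = 1), and a sign-flip test of the ratio gave -0.10 (exact p = 0.875). Few reads limit Neurod1, with 15 or fewer in 7 of the 8 libraries.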
